A study of Mus musculus with 8 samples.

Results

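Of 33 genes that define T cells, B cells and red blood cell precursors, 14 had no region of accessible chromatin assigned to them in cultured macrophages, and 19 had 52 regions between them. Among those 19 genes, 14 had at least 1 region called in all 8 libraries, 6 had at least 1 region that followed a group, and 3 (Zap70, Tcf7 and Rag1) had only regions called in 1 to 7 libraries with no such pattern. Genes of the B cell receptor, the surrogate light chain, Pax5, Gata1 and Epor were without a region. Lck, Themis, Cd2, Ebf1, Rag2 and Klf1 were each assigned a region called in every library. The Rag2 region also overlapped the body of Iftap, and no Cd2 region lay inside the Cd2 body. The 14 genes without a region were 42.4% of the members, against 21.5% of all 21887 protein-coding genes. Among further listed genes of the same lineages the shares were 22.7% (T cell), 22.2% (B cell) and 16.0% (erythroid). The members were the 33 named genes, and a region belonged to a gene when the gene's body was the nearest protein-coding one within 100 kb (mouse build GRCm38), so 52 of 78497 assigned regions and of 87260 regions in all are described.

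The assay was ATAC-seq. It uses a transposase that inserts sequencing adapters into accessible DNA. Macrophages were grown for 7 days from bone marrow of Nfat5 KO and wild-type (WT) mice in medium with 25% conditioned medium of the M-CSF-secreting L929 line, and the 4 groups of 2 biological replicates were KO with LPS, untreated KO, WT with LPS and untreated WT. LPS, lipopolysaccharide of E. coli, was given at 0.3 ng/ml for 2 h. NFAT5 is a transcription factor of the response to high salt that also takes part in macrophage activation; the kind of Nfat5 deletion, the age and strain of the mice and the animals behind each library are not stated. All groups shared the same culture, and the p-values below measure the spread between these libraries.

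All blood cells descend from shared progenitors, and each lineage is set by its own transcription factors. GATA1 and KLF1 act in erythroid cells, EBF1 and PAX5 in B cells, and TCF1 (encoded by Tcf7) and BCL11B in T cells, while PU.1 leads the macrophage program. T and B cells carry antigen receptors whose signals pass through the CD3 and CD79 chains and through Src-family kinases such as LCK and BLK. Receptor genes are assembled by the RAG1 and RAG2 recombinase, which acts in lymphocyte precursors and not in macrophages.

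The deposited lists held 54911 and 54027 peaks in KO with LPS, 56346 and 59811 in untreated KO, 57691 and 55506 in WT with LPS, and 60117 and 59218 in untreated WT. Sequencing depth is unknown, and a missing call does not mean closed chromatin. Of 20 macrophage identity genes such as Spi1, Csf1r and Adgre1, all 20 had a region called in every library. Nfat5 itself had 7 regions, of which the KO libraries with LPS called 5 and 5, the untreated KO libraries 5 and 6, and each of the 4 WT libraries 4, so the peak lists do not mark the deletion. In bulk libraries a few cells of another type and weak accessibility in every macrophage cannot be told apart, and this holds for each lymphoid or erythroid region below.

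Promoter sequence was read for the 26 members with a promoter window in RefSeq (250 bases before to 50 bases after a start site, GRCm38.p6). Only Cd5 and Tcf7 had a region over such a window, and their sequences are shown first, 5′ to 3′ on the minus strand, with the bases inside the called region in capitals. The Cd5 window is chr19:10738925-10739224 and the Tcf7 window chr11:52282965-52283264.
Cd5: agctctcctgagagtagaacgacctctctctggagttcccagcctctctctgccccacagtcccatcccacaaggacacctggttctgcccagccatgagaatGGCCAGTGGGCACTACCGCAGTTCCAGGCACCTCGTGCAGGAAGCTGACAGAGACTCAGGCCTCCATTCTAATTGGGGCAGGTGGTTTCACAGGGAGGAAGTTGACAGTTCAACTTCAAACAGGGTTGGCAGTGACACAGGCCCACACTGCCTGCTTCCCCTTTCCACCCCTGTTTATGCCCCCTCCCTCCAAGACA
Tcf7: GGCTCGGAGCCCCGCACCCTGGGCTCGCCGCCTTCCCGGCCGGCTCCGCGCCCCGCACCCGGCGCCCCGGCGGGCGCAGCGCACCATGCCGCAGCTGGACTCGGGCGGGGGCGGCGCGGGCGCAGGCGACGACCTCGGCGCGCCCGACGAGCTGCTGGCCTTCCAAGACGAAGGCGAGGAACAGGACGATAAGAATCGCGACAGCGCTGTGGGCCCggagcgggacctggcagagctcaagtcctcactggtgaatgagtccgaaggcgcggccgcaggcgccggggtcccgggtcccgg

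The region covered 197 of the 300 bases at Cd5 and 216 of 300 at Tcf7. The Cd5 window held 3 CpG dinucleotides and 1 GAGGAA, the core word bound by PU.1 and other ETS factors, while the Tcf7 window held 45 CpG and 1 GAGGAA. The other members with a CpG-rich window (observed over expected CpG of at least 0.6) were Bcl11b, Pax5 and Ebf1, which encode lineage transcription factors as Tcf7 does. Their windows had no region and are shown because such promoters were usually called: chr12:108003365-108003664 of Bcl11b and chr4:44710645-44710944 of Pax5, both on the minus strand, and chr11:44617850-44618149 of Ebf1, on the plus strand, with CpG in capitals.
Bcl11b: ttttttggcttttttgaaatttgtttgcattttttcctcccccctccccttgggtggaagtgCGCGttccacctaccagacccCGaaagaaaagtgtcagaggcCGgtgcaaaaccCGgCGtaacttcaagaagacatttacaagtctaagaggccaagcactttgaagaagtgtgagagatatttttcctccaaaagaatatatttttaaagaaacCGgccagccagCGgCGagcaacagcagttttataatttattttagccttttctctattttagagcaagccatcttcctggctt
Pax5: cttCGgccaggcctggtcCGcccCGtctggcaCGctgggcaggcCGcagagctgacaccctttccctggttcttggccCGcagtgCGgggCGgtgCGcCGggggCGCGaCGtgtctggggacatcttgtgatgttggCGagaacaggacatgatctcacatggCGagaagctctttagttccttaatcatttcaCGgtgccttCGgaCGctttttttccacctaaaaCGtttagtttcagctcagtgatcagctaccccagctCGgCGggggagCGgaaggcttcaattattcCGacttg
Ebf1: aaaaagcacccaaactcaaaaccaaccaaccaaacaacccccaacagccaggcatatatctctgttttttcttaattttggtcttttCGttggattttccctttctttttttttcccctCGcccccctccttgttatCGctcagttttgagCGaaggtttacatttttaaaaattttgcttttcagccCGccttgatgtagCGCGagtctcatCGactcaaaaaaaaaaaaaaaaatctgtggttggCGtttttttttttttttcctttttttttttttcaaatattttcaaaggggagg

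The capitals count 9 CpG in the Bcl11b window, 23 in the Pax5 window and 9 in the Ebf1 window, and a second Ebf1 window held 17. Their observed over expected CpG was 0.65, 0.88 and 0.95 in that order, beside 1.0 for Tcf7. Of all genes with a CpG-rich window, 76.5% had a region over any of their windows in all 8 libraries. Of these 4 members, 0 did. Among other listed genes with a CpG-rich window, it was 1 of 5 T cell, 1 of 1 B cell and 4 of 6 erythroid genes. No NK cell gene (0 of 1) and no early progenitor gene (0 of 5) had one. The nearest region lay 4.34 kb from the Bcl11b start site, 45.3 kb from that of Pax5 and 0.153 kb from that of Ebf1. It was called in 1 library at Bcl11b, in 8 at Pax5 and in 2 at Ebf1. Among genes with CpG-poor windows only, 1 of 22 members (4.55%, Cd5) had a region there in all 8 libraries, against 18.2% of all such genes. For any CpG content the figures were 2 of 26 members (7.69%) against 54.5% of genes with a region in at least 1 library. They were 1 of 26 members (3.85%) against 47.9% with one in all 8. The windows do not hold every annotated gene start. A constant region over the annotated beginning of the Cd247 body is not counted, as it lay 7.49 kb from that gene's window start site. Of the 20 macrophage identity genes, 12 had a window, and the windows of 9 were CpG-poor. Of these 9 genes, 6 (66.7%) had a region there in all 8 libraries.

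The members' windows were CpG-poor as a group, with a median observed over expected CpG of 0.213, against 0.567 over all windows. GAGGAA on either strand was in windows of 16 of 26 members (61.5%). The share was 30.5% of all 17492 genes with a window and 41.7% of the 12 macrophage identity genes with one. AGATAA or TGATAA on either strand, the words of GATA factors, were in windows of 5 members (19.2%), against 18.2% of all genes with a window. The 5 were Cd3g, Klf1, Alas2, Epor and Ermap. Of these 5, 4 are erythroid genes. AGATAA and TGATAA differ in the first letter, and a gene with either counted once. A match describes the sequence only.

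**Figure D1:**
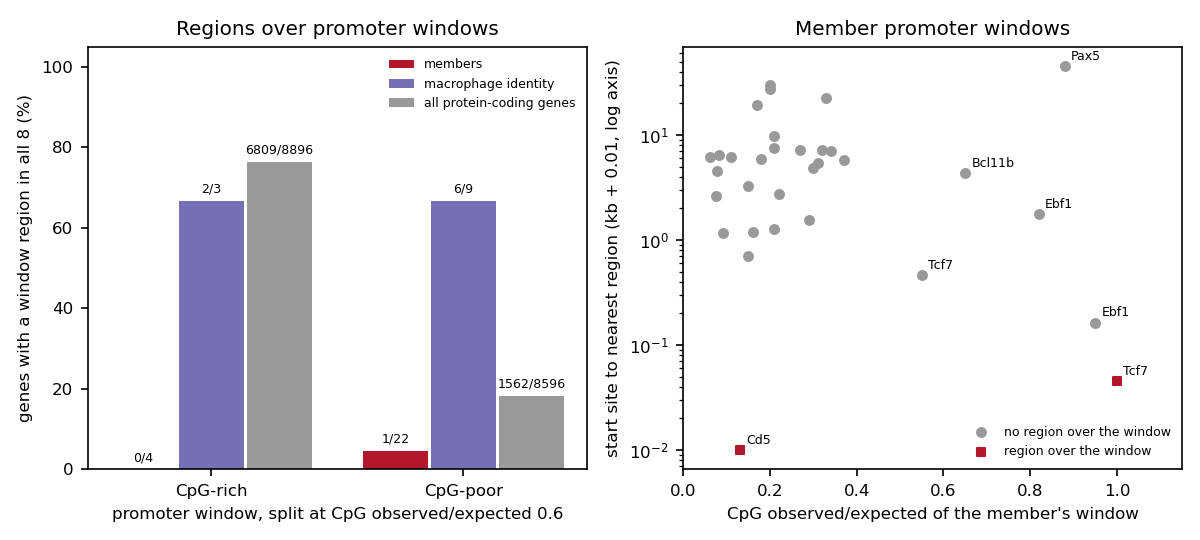
Left, the share of genes (%) with a region over any of their promoter windows in all 8 libraries, with gene counts above the bars. Genes with a CpG-rich window are split from genes with CpG-poor windows only. Shown are the members, the macrophage identity genes and all protein-coding genes. Right, each member window by its observed over expected CpG (x) and the distance from its start site to the nearest region (y, kb plus 0.01, log axis). No CpG-rich member window had a region in all 8 libraries, and only the windows of Cd5 and Tcf7 had any region.

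**Figure D2:**
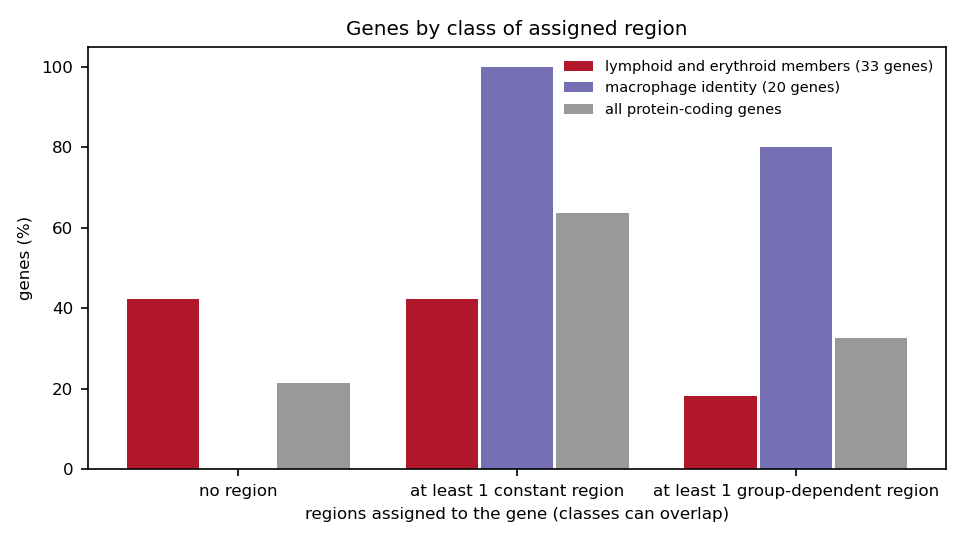
Share of genes (%) with no region, with at least 1 region called in all 8 libraries and with at least 1 group-dependent region, in the 33 members, the 20 macrophage identity genes and all protein-coding genes. A gene can count in both of the last classes. Members stood at 42.4%, 42.4% and 18.2%, and macrophage identity genes at 0, 100% and 80%.

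A region was called constant when all 8 libraries called it, and group-dependent when both libraries of 1 group and neither of the other called it in any of 4 comparisons (LPS against untreated in KO and in WT, KO against WT with LPS and untreated). With at least 1 constant region there were 14 members (42.4%), against 63.6% of all genes. With at least 1 group-dependent region there were 6 (18.2%), against 32.7%. Counted by region, constant ones made up 25 of 52 (48.1%), against 42.9% of all assigned regions, and group-dependent ones 7 of 52 (13.5%), against 16.6%. Regions called in a single library made up 9 of 52 (17.3%), against 18.6%. Members thus lacked a region more often than genes in general. The regions they had were constant or group-dependent at shares near those of all regions. Further T cell, B cell and erythroid genes lacked a region at 22.7%, 22.2% and 16.0%, against 21.5% of all genes. The higher share describes these 33 genes, chosen with earlier results known, and no result about their lineages at large is drawn from it. Those further lists had median gene lengths of 35.2, 22.1 and 19.0 kb, against 14.7 kb for the members. The part of gene length was not tested. Members without a region had a median gene length of 10.9 kb, against 16.5 kb for members with one.

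The lineages are given here by counts only, with no test between them. No region was assigned to 4 of 14 T cell genes, 7 of 11 B cell genes and 3 of 6 erythroid genes, whereas both recombinase genes had one. The T cell genes held 28 regions (15 constant, 4 group-dependent), the B cell genes 17 (7 and 2), the recombinase genes 4 (1 and 0) and the erythroid genes 3 (2 and 1). Of the 52 regions, 28 overlapped the gene's body and 24 lay outside it. Within 1 kb of an annotated gene end there were 11, at 9 genes.

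**Figure D3:**
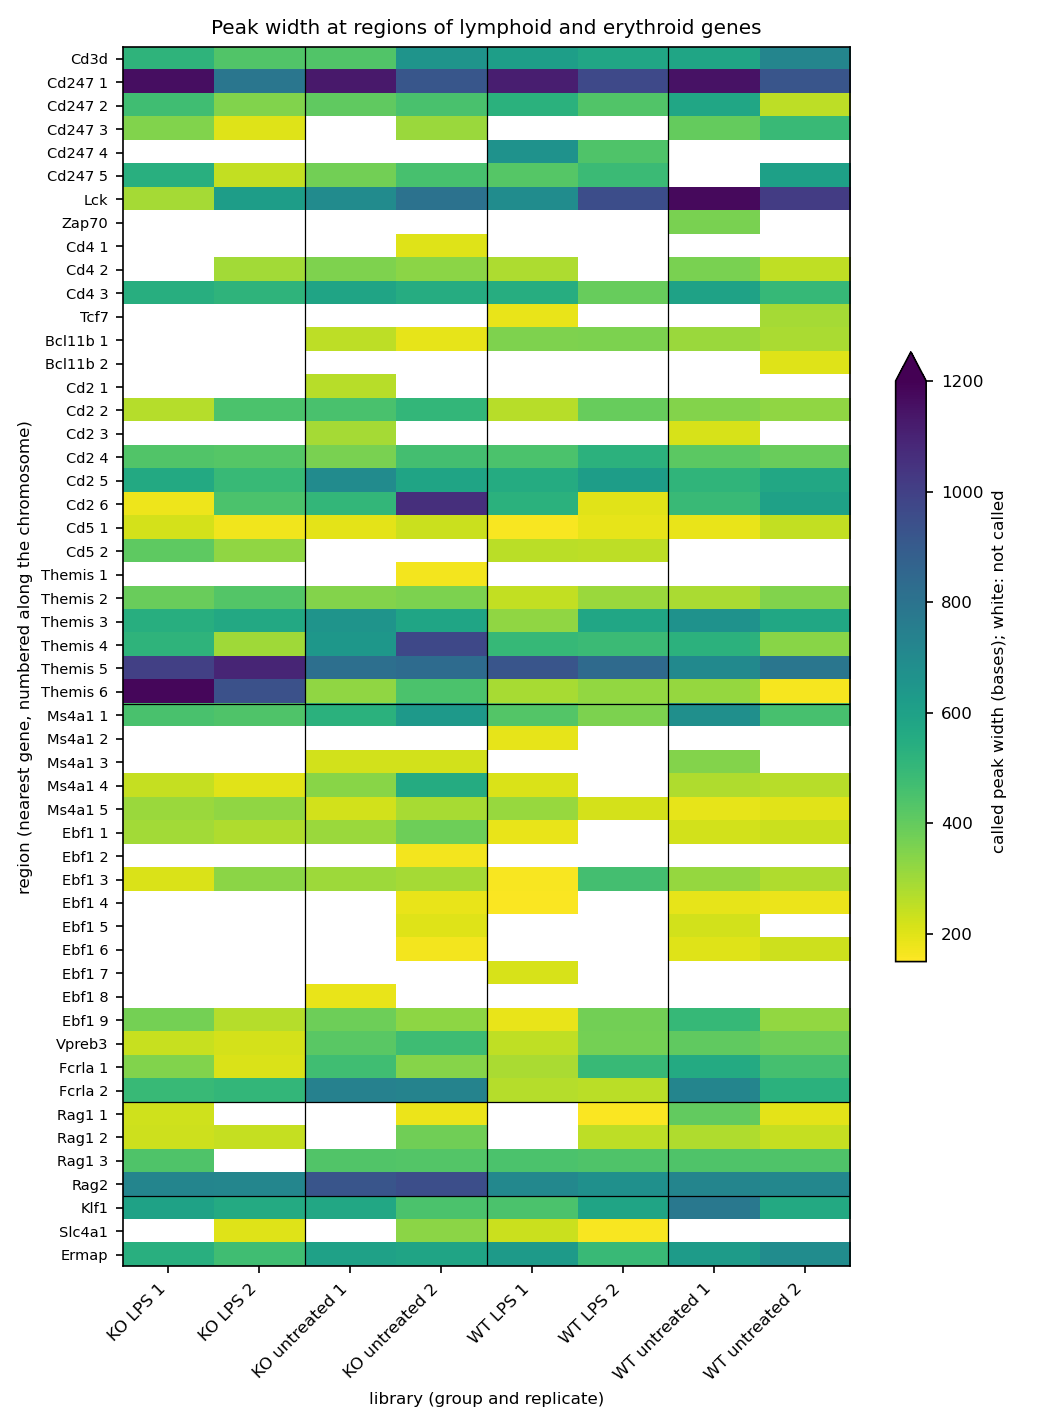
Called peak width (bases, colour) of the 52 member regions (rows, by lineage and gene, numbered along the chromosome) in the 8 libraries (columns, by group). White marks a region that the library did not call, and the colour scale ends at 1200 bases. The row of Lck and 5 of the 6 rows of Themis are filled across, whereas all rows of Rag1 have gaps.

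The antigen receptor chains were mostly without a region. Cd3e and Cd3g, which encode CD3 signalling chains beside Cd3d on chromosome 9, had none, the nearest region of any gene lying 11.7 kb from Cd3e and 3.43 kb from Cd3g. Cd3d had 1 region over its annotated end, chr9:44986304-44987070. It measured 519 and 435 bases in KO with LPS, 436 and 658 in untreated KO, 613 and 577 in WT with LPS, and 584 and 723 in untreated WT. All 8 libraries called it, the groups overlapped, and it lay 4.52 kb from the Cd3d start site.

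Cd247, which encodes the CD3 zeta chain, had the most varied set of the T cell genes, with 5 regions inside its 91.2 kb body. Its widest, chr1:165779929-165781196 over the body's annotated beginning, measured 1163 and 789 bases in KO with LPS, 1129 and 920 in untreated KO, 1113 and 968 in WT with LPS, and 1148 and 925 in untreated WT. The groups overlapped there. A second constant region, chr1:165845128-165845743, was between 254 and 577 bases wide, and another region, chr1:165863664-165864275, was called in 7 libraries, all but replicate 1 of untreated WT.

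Both remaining Cd247 regions followed a group. At chr1:165853506-165854223 the peak was 347 and 201 bases wide in KO with LPS, not called and 306 in untreated KO, not called in either library of WT with LPS, and 397 and 490 in untreated WT. WT libraries thus called it without LPS and not with LPS, and KO libraries with LPS called it where WT libraries with LPS did not. That genotype call ended, with a difference of 0.0 bases, when a peak had to cover 50% of the region and when only the widest 27013 peaks of each list were kept; with the widest peaks the WT call with LPS ended too. At chr1:165855471-165856133, close by, only the libraries of WT with LPS called a peak, of 663 and 441 bases.

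The T cell kinases differed from each other. Lck, which starts signalling at the T cell receptor, had 1 constant region inside the gene, chr4:129555398-129557112, 1.26 kb from the nearer of its 2 start sites. It measured 291 and 616 bases in KO with LPS, 693 and 806 in untreated KO, 689 and 951 in WT with LPS, and 1172 and 1013 in untreated WT. The untreated WT libraries were the widest and the KO libraries with LPS the narrowest, but LPS and untreated libraries overlapped, as did KO and WT libraries. Zap70, the kinase recruited to phosphorylated CD3 and zeta chains, had a single region, called only in replicate 1 of untreated WT (363 bases, 1.90 kb past the gene's end).

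Of the coreceptors, Cd8a and Cd8b1 had no region, with the nearest region of any gene 21.5 kb and 42.9 kb away. Cd4 had a constant region 5.51 kb outside its body, chr6:124893756-124894380, which lay 9.98 kb from Lag3. Its widths were 542 and 518 bases in KO with LPS, 587 and 549 in untreated KO, 546 and 394 in WT with LPS, and 594 and 495 in untreated WT. Inside the gene, chr6:124874295-124874663 was called in 6 libraries at 250 to 362 bases, and a further region in 1 library at 203 bases.

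Cd2, an adhesion molecule of T cells and NK cells, and Themis, a regulator of T cell selection in the thymus, had 6 regions each. None of the Cd2 regions lay inside its 12.0 kb body, and 4 of them were constant. The widest of these on average was chr3:101295060-101295769, 7.12 kb from the gene, with 563 and 491 bases in KO with LPS, 693 and 585 in untreated KO, 553 and 615 in WT with LPS, and 511 and 572 in untreated WT. The most variable was chr3:101312823-101314053, which measured 175 and 449 bases in KO with LPS, 505 and 1057 in untreated KO, 529 and 199 in WT with LPS, and 490 and 600 in untreated WT. Replicates of 1 group differed there by more than 2-fold in 3 of the 4 groups, so the width followed no group.

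Themis had 5 constant regions, 3 of them inside its 215 kb body and both others downstream of it. The region 3.07 kb past the gene, chr10:28886891-28887982, measured 1001 and 1092 bases in KO with LPS, 817 and 834 in untreated KO, 922 and 837 in WT with LPS, and 702 and 787 in untreated WT. LPS libraries were wider than untreated ones without overlap, by 178.0 bases on average. The region 14.5 kb past the gene, chr10:28898307-28899728, measured 1183 and 940 bases in KO with LPS, 324 and 448 in untreated KO, 287 and 322 in WT with LPS, and 317 and 165 in untreated WT. The KO libraries were wider than the WT libraries without overlap, by 451.0 bases on average, but the lowest KO value (324) was only 2 bases above the highest WT value (322). The separation ended with 50% cover, with lists shortened to equal length and with the widest 27013 peaks, and without replicate 1 of KO with LPS the difference was 297.9 bases. The 3 regions inside the gene were between 247 and 974 bases wide, and their groups overlapped between treatments and between genotypes.

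Cd5, a receptor that dampens T cell receptor signals, was the 1 member with a region in every LPS library and in no untreated one. Its promoter region, shown above, was narrow in every library, at 217 and 172 bases in KO with LPS, 194 and 236 in untreated KO, 159 and 188 in WT with LPS, and 185 and 245 in untreated WT. A second region 20.4 kb upstream, chr19:10759465-10759875, was called with 411 and 326 bases in KO with LPS and with 257 and 253 bases in WT with LPS, and in none of the 4 untreated libraries. It lay 29.5 kb from Cd6, the next gene. Of all regions, 1.09% were called in the 4 LPS libraries and no untreated one, and this was the 1 member region among them.

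Both T cell transcription factors lacked a constant region. Tcf7 had only the promoter region, called in replicate 1 of WT with LPS (186 bases) and replicate 2 of untreated WT (290 bases). Bcl11b had a region inside the gene, chr12:107961852-107962210, that was called in neither library of KO with LPS, at 254 and 187 bases in untreated KO, at 354 and 359 in WT with LPS and at 309 and 282 in untreated WT. It lay 41204 bases from the start site. Only the KO libraries with LPS lacked it. With lists shortened to equal length, the call between KO with LPS and untreated KO ended (−127.0 bases, KO with LPS minus untreated KO).

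The B cell receptor genes were without regions. Cd79a and Cd79b, its signalling chains, had none, and neither had Vpreb1 and Igll1, which encode the surrogate light chain of pre-B cells, or Cd22 and Blk, an inhibitory receptor and a Src-family kinase. The nearest region of any gene lay 1.05 kb from Cd79a and 1.16 kb from Vpreb1, and was assigned to Arhgef1 and Top3b. It lay 30.4 kb from Blk. Pax5, which holds cells to the B cell fate, had none either over a body of 186 kb, and the nearest region was 45.3 kb off. Of 1461 genes of 150 kb or more, a length chosen after the values were seen, 3.97% had no region. Of the 3 members that long, Themis and Ebf1 (390 kb) had 6 and 9 regions.

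Ebf1, which opens chromatin for the B cell program, held the most regions of any member, and 7 of the 9 were not constant. The constant ones were chr11:44610817-44611295, 6.80 kb upstream, and chr11:45008023-45008547 at the far end of the gene. The wider, at the far end, measured 368 and 268 bases in KO with LPS, 380 and 330 in untreated KO, 185 and 374 in WT with LPS, and 498 and 319 in untreated WT. Its groups overlapped. One region, chr11:44624693-44624952, was called in both untreated WT libraries (200 and 232 bases) and in replicate 2 of untreated KO (167 bases), and in no LPS library. With equal list lengths the call in WT ended. Near the start site, chr11:44617121-44617318 was called in 4 libraries at 156 to 187 bases and chr11:44618253-44618491 in 2 untreated libraries at 201 and 223 bases. These narrow peaks were close to the narrowest peak of a list, which was 156 to 174 bases.

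Ms4a1, which encodes CD20, had 5 regions in the cluster of Ms4a genes, where neighbours lay 6.45 to 12.6 kb away. Its widest constant region, chr19:11244027-11244828, measured 450 and 440 bases in KO with LPS, 529 and 636 in untreated KO, 433 and 356 in WT with LPS, and 678 and 457 in untreated WT. LPS libraries were narrower without overlap, and LPS minus untreated was −155.2 bases; with the widest 27013 peaks they overlapped. A region inside the gene, chr19:11263043-11263400, had peaks of 221 and 220 bases in untreated KO and of 343 bases in replicate 1 of untreated WT, and none in an LPS library. The constant region 0.918 kb from the gene, chr19:11267067-11267417, was between 190 and 324 bases wide.

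Vpreb3 and Fcrla, which encode proteins that act inside B-lineage cells, had constant regions outside their bodies. At Vpreb3, chr10:75951571-75952067 lay 1.91 kb downstream of the gene and 2.43 kb from the next one, Gm5134. It measured 240 and 219 bases in KO with LPS, 419 and 475 in untreated KO, 252 and 369 in WT with LPS, and 407 and 381 in untreated WT, so LPS libraries were narrower without overlap (LPS minus untreated, −150.5 bases), although not with the widest 27013 peaks. At Fcrla, chr1:170934138-170934885 lay 1.92 kb upstream. It measured 492 and 505 bases in KO with LPS, 739 and 729 in untreated KO, 265 and 257 in WT with LPS, and 722 and 529 in untreated WT. This was the largest difference in width with LPS among the members' constant regions that did not overlap, with LPS minus untreated at −300.0 bases, and replicates differed by 8 to 13 bases in 3 of the 4 groups. The second Fcrla region, inside the gene, was between 210 and 560 bases wide, with overlapping groups.

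Rag1 and Rag2 lie side by side on chromosome 2. Rag2 had 1 constant region inside its body, chr2:101628434-101629381, which also overlapped the body of Iftap and was assigned to both. It measured 721 and 720 bases in KO with LPS, 925 and 948 in untreated KO, 708 and 672 in WT with LPS, and 721 and 713 in untreated WT. Both untreated KO libraries were wider than the other 6. Rag1 had 3 regions, at 1.18, 3.30 and 8.44 kb upstream of its start site, called in 5, 6 and 7 libraries. The farthest, chr2:101657975-101658421, measured 439 bases in replicate 1 of KO with LPS, 436 and 433 in untreated KO, 447 and 439 in WT with LPS, and 438 and 438 in untreated WT, and was not called in replicate 2 of KO with LPS. None of the Rag1 regions followed a group.

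Among the erythroid genes, Gata1, the master regulator, Alas2, the first enzyme of heme synthesis in red cells, and Epor, the erythropoietin receptor, had no region. The nearest region of any gene lay 10.8 kb from Gata1, 7.12 kb from Alas2 and 2.55 kb from Epor. Klf1, an activator of globin genes, had a constant region inside the gene, chr8:84902681-84903499, 0.699 kb from its start site. It measured 596 and 560 bases in KO with LPS, 570 and 449 in untreated KO, 449 and 585 in WT with LPS, and 781 and 561 in untreated WT. Ermap, an erythroid membrane protein of the immunoglobulin superfamily, had a constant region inside the gene, chr4:119181209-119181938, with 539 and 471 bases in KO with LPS, 599 and 585 in untreated KO, 626 and 489 in WT with LPS, and 622 and 691 in untreated WT. Groups overlapped at both. Slc4a1, the anion exchanger of the red cell membrane, had 1 region 9.86 kb outside its body, chr11:102338610-102338962, called in both libraries of WT with LPS (235 and 160 bases), in replicate 2 of KO with LPS (200 bases) and of untreated KO (333 bases), and in no untreated WT library. With 50% cover or equal list lengths the call in WT ended.

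**Figure D4:**
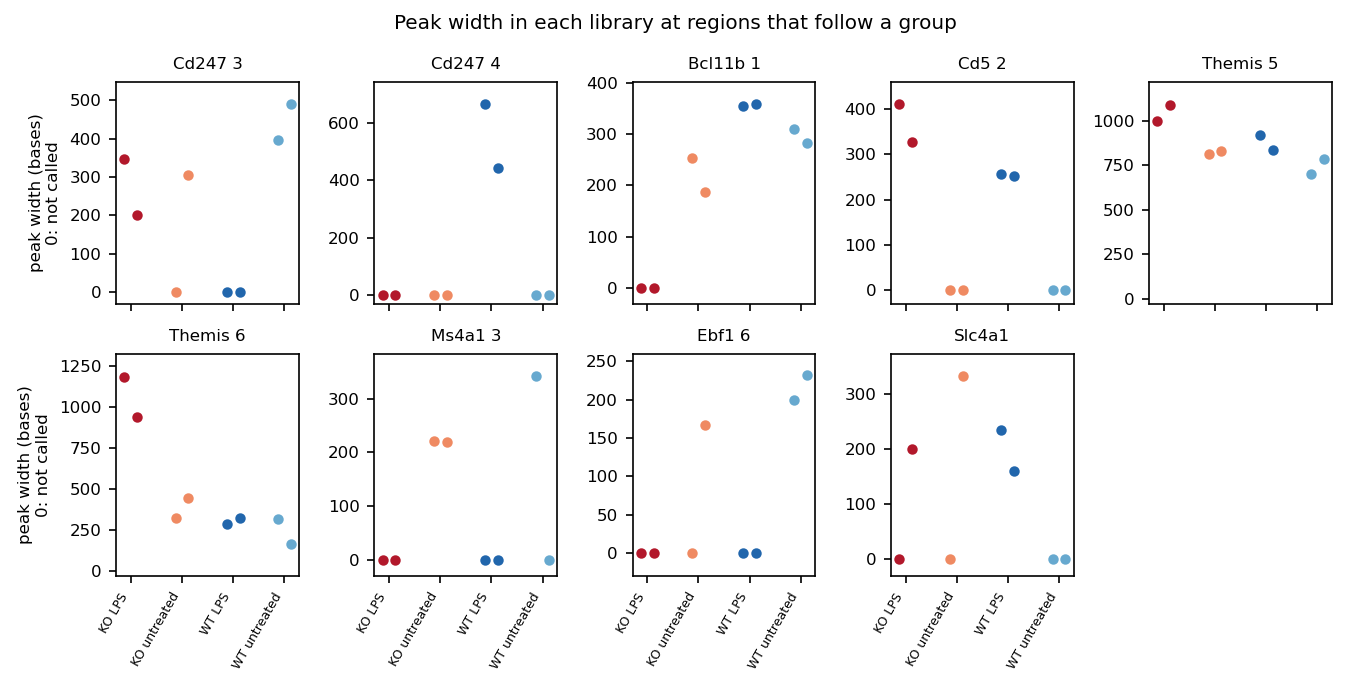
Called peak width (bases; 0 where not called) in each of the 8 libraries, by group, at the 7 group-dependent member regions and at the Themis regions 3.07 kb (Themis 5) and 14.5 kb (Themis 6) past the gene. Points are single libraries, and panel numbers follow the order along the chromosome. The second Cd5 region is called in the 4 LPS libraries only, and the fourth Cd247 region in WT with LPS only.

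Counts of member regions that followed LPS or genotype were small, and their shares lay on either side of those of all regions. In KO cells, 1 of 52 regions was called in both LPS libraries and neither untreated one, against 2.5% of all regions, and 2 in the reverse case, against 4.11%. In WT cells the counts were 3, against 3.94%, and 2, against 5.07%. With LPS, 1 region was called in both KO and neither WT library, against 1.83%, and 2 in the reverse case, against 3.24%. Untreated, no region was called in both KO and neither WT library, against 1.51% of all regions, or in the reverse case, against 2.28%. All 4 untreated libraries without any LPS library called no member region, against 0.944% of all regions. The 4 KO libraries without a WT library called none, against 0.124%, and the 4 WT libraries without a KO library none, against 0.248%. A comparison of 2 libraries with 2 cannot go below an exact p of 0.333, so the counts over 2 and 2 libraries have no test, and those over 4 and 4 are given as descriptions. With the widest 27013 peaks of each list, the group-dependent regions of Bcl11b, Cd5, Ms4a1, Ebf1 and Slc4a1 were in no list. The KO libraries with LPS had the shortest lists, and they called 33 and 33 member regions, beside 35 and 42 in untreated KO, 38 and 33 in WT with LPS, and 39 and 38 in untreated WT. The part of list length in the group-dependent calls was not tested.

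Widths of the constant regions were compared 4 libraries against 4 by a two-sided exact permutation test with Benjamini-Hochberg adjustment over 36009 regions. LPS libraries were narrower without overlap at 3 of 25 member regions (12%), those of Ms4a1, Vpreb3 and Fcrla, against 10.8% of all constant regions, and wider at 1 (4%), that of Themis, against 2.53%. KO libraries were narrower at none, against 3.03%, and wider at 1 (4%), that of Themis, against 1.01%. Each of these 5 had an exact p of 0.0286, the smallest that free arrangements of 4 against 4 libraries allow. The adjusted p was 0.214 for LPS and 0.705 for KO. Those arrangements keep neither genotype nor treatment balanced. In the labels each title code is common to 1 untreated and 1 LPS library, which may mean the same animal. The KO against WT test would then rest on 2 animals a genotype, for which the smallest exact p is 0.333. An LPS test that kept the 4 pairs could not go below an exact p of 0.125. None of the 36009 regions passed an adjusted p of 0.05 in either comparison, with 4813 for LPS and 1459 for KO at an unadjusted p under 0.05. The median difference was −62.5 bases with LPS and 20.2 bases in KO at the member regions, against −43.5 and −12.0 bases at all constant regions. Peaks were narrower with LPS across whole lists too, with medians of 403 to 410 bases in KO with LPS, 422 to 443 in untreated KO, 402 to 415 in WT with LPS and 434 to 437 in untreated WT.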

How the data were processed

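For each of 8 libraries the authors deposited the positions of its peaks (chromosome, start and end on GRCm38, mm10), with no score, height or count. Per the submitters' processing notes the authors used MACS2 2.1.1, Bowtie2 2.3.0, bcl2fastq 2.17.1.14 and Picard. How each was run, the threshold for a peak, the handling of duplicates and any shift of reads to the cut position are not stated in the sources used here, and such choices decide which weak peaks are listed. Depth is unknown, so no counting interval is given.

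On the 21 main chromosomes, peaks of all lists that shared at least 1 base were merged into regions. A library called a region when a peak overlapped it by at least 1 base, and its width there is the number of bases its peaks cover. Regions went to the nearest protein-coding gene body within 100 kb in RefSeq's GRCm38.p6 gene table, ties being kept. Starts count from 1. All 33 members matched by symbol; a promoter window was read for 26 of them, and Blk, Cd2, Cd4, Cd79b, Cd8b1, Ms4a1 and Slc4a1 are named only. Motifs were counted on both strands.

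Calls have no test. Widths were compared over all 70 arrangements of 4 against 4 libraries (exact permutation test, two-sided), adjusted by the Benjamini-Hochberg method over all regions called in all 8 libraries, and the step was tested on simulated data. Each member's constant region of largest mean width and every group-dependent region are given. The members and gene lists were chosen with earlier results of these data known. Alternatives were shorter distances, 50% cover, lists shortened to equal length (54027 widest peaks) or to the widest 27013, leaving out each library, and a replicate block. Python 3.11.15, numpy 2.4.6, pandas 2.3.3 and matplotlib 3.10.9 were used.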

Additional observations from a re-analysis of the deposited data

Results flagged for a closer look

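At 3 member regions, matched comparisons had opposite directions, with every library of 1 group above every library of the other in one comparison and below it in the other; these differences between comparisons were not tested. At the Cd247 region chr1:165853506-165854223, KO minus WT was 274.0 bases with LPS and −290.5 bases untreated, counting 0 where no peak was called. The difference with LPS was 0.0 bases with 50% cover and with the widest peaks, which ends the pattern. At the Bcl11b region chr12:107961852-107962210, LPS minus untreated was −220.5 bases in KO and 61.0 bases in WT. With equal list lengths the KO libraries no longer separated (−127.0 bases). At the constant Vpreb3 region chr10:75951571-75952067, KO minus WT was −81.0 bases with LPS and 53.0 bases untreated. Over all assigned regions, 3168 (4.04%) had such a pattern in either form, and 3 of the 52 member regions did.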

How the results depend on the processing

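The 14 members without a region stayed at 14 with a distance limit of 25 kb, with 50% cover and with equal list lengths. They were 19 where a region had to overlap the gene body or lists held only the widest peaks. The members' share without a region was above that of all genes under each of these: 42.4% against 23.1%, 42.4% against 21.5%, 42.4% against 22.3%, 57.6% against 30.8% and 57.6% against 32.5%. Leaving out each library in turn gave 14 to 15.

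Region counts under these settings, and with a library left out, were made for the members only. Without the shares over all regions they show how the member counts move and nothing more. Counting only regions over gene bodies left 28 member regions, 13 of them constant. Gained with LPS means called in both LPS libraries and neither untreated one, and lost the reverse. This limit left 0 gained with LPS in KO, 1 gained with LPS in WT, 0 in the 4 LPS libraries only and 0 that differed in width without overlap in either direction with LPS or higher in KO. With 50% cover, 11 regions were constant and 12 group-dependent. LPS in KO then gave 2 gained and 4 lost, LPS in WT 4 lost, and untreated WT alone 2 against untreated KO. KO with LPS alone had 3. Of the regions still constant, 0 were narrower with LPS or wider in KO without overlap. Counting 0 where no peak was called, LPS and untreated libraries stayed separate at Ms4a1 (−244.2 bases), Vpreb3 (−265.2 bases) and Fcrla (−430.5 bases). Equal list lengths gave 1 lost with LPS in KO, 1 lost in WT and 0 wider in KO. The widest peaks alone gave 5 members with a constant region and 28 regions, 5 of them constant. They gave 0 lost with LPS in KO, 1 lost in WT, 2 with LPS in KO and not WT, and 0 in the 4 LPS libraries only. There were 0 promoter regions, and 0 constant regions narrower with LPS or wider in KO without overlap. Fcrla kept its separation with LPS there (−430.5 bases, counting 0 where no peak was called), and Ms4a1 and Vpreb3 did not. The Themis region 14.5 kb past the gene was among those that lost its separation under 50% cover (530.8 bases), equal lengths (449.5 bases) and the widest peaks (437.8 bases).

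Leaving out 1 library makes a group-dependent call easier, since a group then has 1 library. Without 1 library there were 8 to 13 group-dependent regions, with 13 without replicate 2 of untreated KO or of WT with LPS, 12 without replicate 1 of untreated KO, and 11 without replicate 1 of WT with LPS or replicate 2 of untreated WT. In KO, 1 to 3 were gained and 2 to 8 lost with LPS (8 without replicate 1 of untreated KO), and in WT 3 to 5 gained and 2 to 6 lost. Untreated, 0 to 4 were called in KO alone and 0 to 5 in WT alone; with LPS, 1 to 3 in KO alone and 2 to 6 in WT alone; and 0 to 1 in all untreated libraries alone. Widths were narrower with LPS without overlap at 3 to 6 regions (6 without replicate 2 of WT with LPS or of untreated WT) and wider at 1 to 2, and narrower in KO at 0 to 1 and wider at 1 to 2.

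Width deviations from the group mean correlated at 0.054 and 0.054 for a shared title code in KO and WT. For a shared replicate number they correlated at 0.041 untreated and 0.017 with LPS. With 2 libraries a group, these values cannot decide whether libraries share an animal. With the replicate block, all 4 pairs were narrower with LPS at 6 member regions and wider at 2. They were narrower in KO at 3 and wider at 6. KO and WT libraries were paired by replicate number, which the labels do not tie to an animal. The same counts were not made over all constant regions, so no result about the members is drawn from them. A permutation test of 4 pairs cannot go below an exact p of 0.125. Of 16 differences at named regions, 3 lost their separation with 50% cover and 4 with equal list lengths; with the widest peaks 5 lost it, 7 had no region left and 4 kept it. None of these reversed. Distance limits do not change widths, and leaving out a library cannot make separate groups overlap. Causes were not tested. Depth per library, which is unknown, limits what a missing call can show.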

Other observations

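Further lymphoid and erythroid genes are given by the same counts, with no test. No region was assigned to 5 of 22 further T cell genes (22.7%), 4 of 18 further B cell genes (22.2%), 2 of 8 NK cell genes (25.0%) and 4 of 25 further erythroid genes (16.0%), while Ahsp had no match in the gene table. At least 1 constant region was found at 14 (63.6%), 11 (61.1%), 5 (62.5%) and 18 (72.0%) of them in the same order. Among early progenitor genes 1 of 8 had no region and 4 (50%) a constant one, and among neutrophil genes 2 of 10 and 4 (40%), beside 42.4% of the members. At least 1 group-dependent region was found at 13 further T cell genes (59.1%), 11 B cell genes (61.1%), 2 NK cell genes (25.0%), 8 erythroid genes (32.0%), 6 progenitor genes (75.0%) and 4 neutrophil genes (40%), against 18.2% of the members and 32.7% of all genes. Widest constant regions in these lists were at Prkcq, a kinase of T cell signalling (1379.2 ± 126 bases, SD over 8 libraries), Bach2, a repressor in B cells (1446.9 ± 166), Klrb1c, an NK cell receptor (1473.9 ± 122), Lmo2, a partner of erythroid and stem cell factors (1196.9 ± 164), and Cd34, a progenitor surface protein (1392.1 ± 168). Skap1, a T cell adapter gene of 295 kb, had no region.

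Several genes of these lists had a region in all 4 LPS libraries and in no untreated one. At Lef1, a T cell transcription factor, chr3:131084996-131085678 measured 446 and 386 bases in KO with LPS and 499 and 683 in WT with LPS. At Myb, a progenitor transcription factor, chr10:21200524-21201223 measured 574 and 597 bases in KO with LPS and 625 and 575 in WT with LPS. At Car1, a carbonic anhydrase of red cells, chr3:14824890-14825348 measured 430 and 438 bases in KO with LPS and 454 and 421 in WT with LPS. These calls have no test. At Prtn3, a protease of neutrophil granules, the reverse was seen: chr10:79883431-79884021 measured 501 and 522 bases in untreated KO and 590 and 511 in untreated WT, and no LPS library called it.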
